A study of Mus musculus with 10 samples.

Results

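Cytosolic ribosomal protein genes were followed in the livers of 10 mice in which the microRNA miR-122 was blocked or left intact. Members were all genes whose annotated symbol follows the pattern of a large subunit protein (Rpl and a number) or a small subunit protein (Rps and a number), with an optional a, x or l at the end, and that had a probe assigned to 1 gene. The pattern found 54 of the 18012 genes with such a probe, 36 of the large and 18 of the small subunit, on 71 probes, and for each gene the probe of highest mean intensity over all arrays was used. It leaves out the acidic stalk proteins Rplp0, Rplp1 and Rplp2 and genes such as Rpsa, which are given apart, and Rpl12, Rpl37, Rps21 and Rps27, whose probes are shared with other genes. The rule itself uses symbols and, for the choice of probe, the mean over all arrays, and no difference between the groups.

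One group was 5 male C57Bl/6 mice that received an antisense oligonucleotide (ASO) to miR-122 by intraperitoneal injection. The dose was 50 mg/kg, given 2 times per week over 4 weeks. The other group was 5 mice that received saline on that schedule, with sex and strain not stated in their labels. All livers were taken 2 days after the last injection. The oligonucleotide was 2′-O-methoxyethyl modified with a phosphorothioate backbone, and the control was saline, so blocking miR-122 and the presence of an oligonucleotide cannot be told apart. Each liver was hybridised to its own 1-colour CodeLink array, and values are log2 of the deposited intensity.

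Ribosomal proteins are made in near-equal amounts, because each ribosome holds a single copy of most of them, and in the liver they are among the most abundant messages. Their mRNAs begin with a run of pyrimidines, the terminal oligopyrimidine tract, through which the kinase complex mTORC1 adjusts how much they are translated. The large subunit joins amino acids, and the small subunit reads the mRNA. Some genes of the pattern are paralogs outside this common set. Rpl3l is a muscle form of Rpl3, Rpl39l a testis form of Rpl39, and Rps27l a form of Rps27 known as a target of the stress factor p53.

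Saline replicate 1 stood apart at high intensity. Its brightest value was 542, against 1198 to 2333 on the other 9 arrays. Among members without missing values it was the highest saline array for 9 of 14 with a mean log2 intensity of 5 to 7 and for 8 of 13 between 7 and 8. Of the 15 members at 8 or more, it was the highest saline array for 1 and the lowest for 4. Several results that rest on that array are given with and without it. Among hepatocyte markers, 6 of 9 were higher and 3 lower in the ASO livers, with a median log2 difference of 0.38 that was 0.13 without saline replicate 1, and a mean level per array of 8.37 to 9.26 in saline and 9.02 to 9.40 in ASO livers, so the labelled tissue was borne out by its defining genes. The lymphocyte list had a mean level of 0.08 to 0.26 in saline and -0.10 to 0.15 in ASO livers, with 7 of 10 genes lower and Ms4a1, a B cell surface protein, at a log2 difference of -0.57 ± 0.16 (SE). The neutrophil list, with 4 of 6 genes higher, was the only marker list whose array means did not overlap, at -0.20 to 0.01 in saline and 0.03 to 0.31 in ASO livers. Its granule proteins Elane and Ltf differed by 0.74 ± 0.19 and 0.80 ± 0.32 (SE), but S100a8 and S100a9 by -0.32 ± 0.30 and -0.19 ± 0.31. The neutrophil probes were dim, at a median log2 intensity of 0.18, and Mpo was at the floor in saline replicate 5, so these array means depend on the floor. Cdh5, of endothelial cells, differed by 0.87 ± 0.28, with saline replicate 5 at the floor, and 4 of the 7 endothelial markers were higher and 3 lower. Mki67, of cycling cells, differed by 0.76 ± 0.25, with 3 of the 4 markers of its list higher and 1, Birc5, lower at -0.13 ± 0.34. Krt19, of bile duct cells, differed by -0.62 ± 0.24, in a list with 2 genes lower and 2 higher. Medians were 0.07 for endothelial, 0.28 for cycling, 0.11 for red blood cell, -0.02 for bile duct, -0.18 for stellate and -0.13 for Kupffer cell markers, and 0 genes of the 9 lists passed limma's adjusted threshold. Their part in the results below was not tested, and in whole liver fewer cells of a type and less RNA per cell cannot be told apart. No gene of the 9 marker lists was at the floor on all arrays. Beside the counts of these lists, 54.9% of all genes were lower.

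Most ribosomal protein genes were somewhat lower in the ASO livers, and none passed the test. Of the 54 genes, 46 had a lower mean after the ASO (85.2%), where 54.9% of all genes did. The 46 include Rpl34 and Rps2, whose probes were near the floor at mean log2 intensities of -2.17 and -2.09, and whose differences depend on it. Median log2 differences, ASO minus saline, were -0.24 for the 36 large subunit genes and -0.29 for the 18 small subunit genes, against -0.04 over all genes. The single differences ran from -1.03 for Rps26 to 0.49 for Rpl22. By limma with Benjamini-Hochberg adjustment over all 36088 probes, 0 of the 54 passed 0.05, with a smallest adjusted p of 0.207, while 0.0637% of all probes and 0.0888% of all genes passed.

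At an unadjusted p under 0.05 there were 10 members lower and 0 higher (18.5% of 54), where 8.26% of all genes were lower and 4.21% higher by the same rule. Among other genes of high intensity, defined below, 10.1% were lower by that rule. The 10 were Rpl10a, Rpl3, Rpl8, Rpl27, Rpl36, Rpl26 and Rpl23 of the large subunit and Rps27l, Rps15 and Rps26 of the small subunit. Their number was 7 without saline replicate 1, 7 without ASO replicate 3 and 17 without ASO replicate 5. Shares over all genes are not given for these settings, so a general shift in calls cannot be told from a shift of the members. Groups did not overlap in 4 members, all lower in the ASO group (7.41%, against 1.72% of all genes), and 0 were higher without overlap, against 0.96% of all genes. The submitters asked for fold changes of 1.5 and above, and 11 members were lower by at least that much (20.4%, against 9.33% of all genes), while 0 were higher by that much, against 3.56% of all genes.

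The precision of a single gene was low. The 95% intervals of 44 of the 54 differences included 0. A decrease of 1.5-fold lay outside the interval of 11 members and an increase of 1.5-fold outside that of 45.

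**Figure D1:**
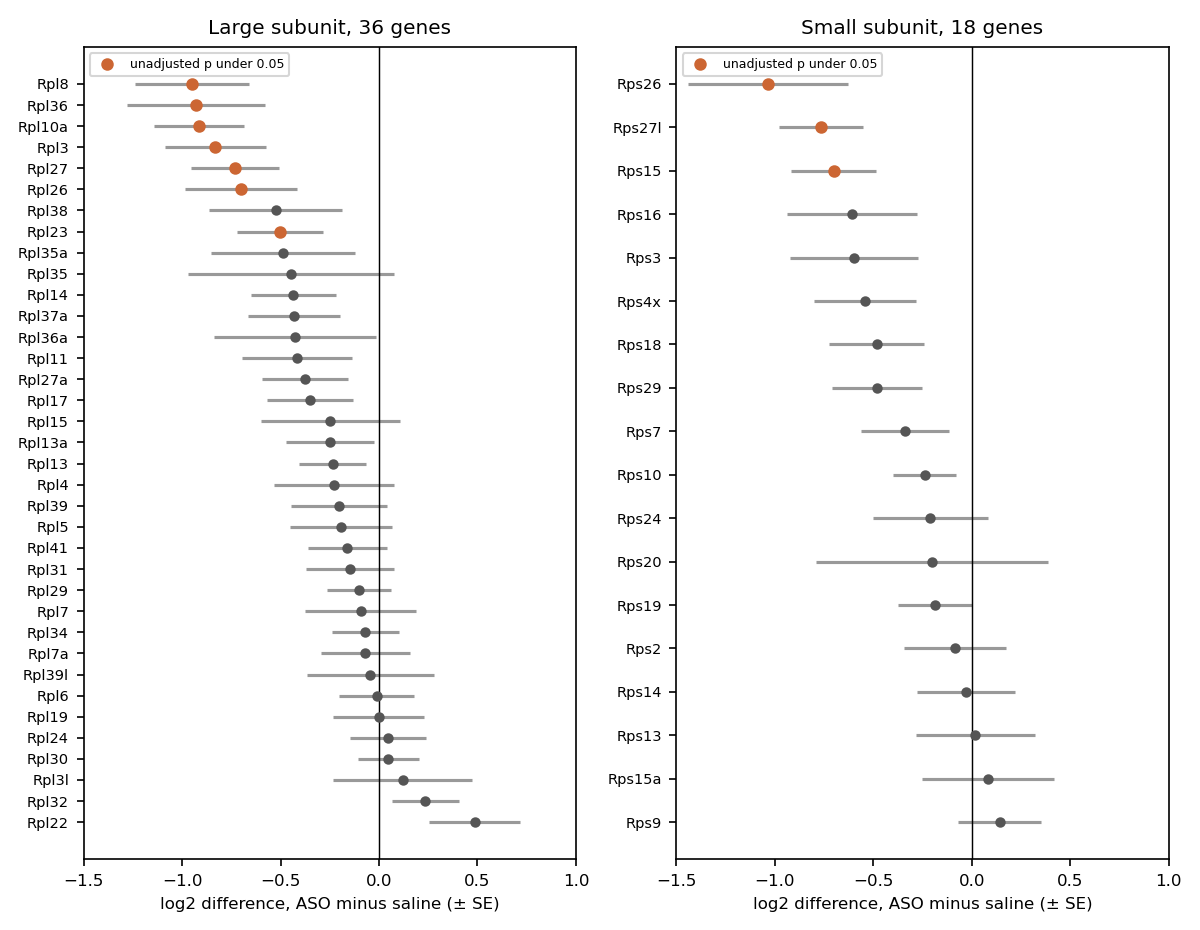
Log2 difference of ASO minus saline livers (horizontal axis) for each large subunit gene (left) and small subunit gene (right), with bars of 1 SE and orange points for an unadjusted p under 0.05. Most points lie left of 0, from -1.03 for Rps26 to 0.49 for Rpl22, and all 10 orange points are lower.

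Bright probes as a whole were also somewhat lower in the ASO livers, so the members were set beside other genes of high intensity. The 1675 other genes with a mean log2 intensity of at least 5 had a median difference of -0.11, and 64.1% of them were lower. The 43 members in that range had a median of -0.37, and 37 were lower. Without saline replicate 1 the medians were -0.11 for the other bright genes and -0.33 for the bright members. After quantile normalization the other bright genes moved to 0.02 and the bright members to -0.26, and after cyclic loess to -0.01 and -0.33. Over all 36 and 18 members the medians were then -0.19 and -0.20 with quantile normalization and -0.16 and -0.20 with cyclic loess. With quantile normalization 40 of the 54 members were lower, against 8818 of all 18012 genes and 799 of the 1675 other bright genes. With cyclic loess 41 of the 54 were lower, against 9327 of all genes and 865 of the other bright genes.

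Medians were furthest below 0 at middle brightness. Members with a mean log2 intensity of 5 to 7 had a median difference of -0.49 (13 of 15 lower, and -0.37 without saline replicate 1), where the other 1291 genes of that range had -0.12. Members between 7 and 8 had -0.45 (12 of 13 lower, and -0.38 without saline replicate 1), against -0.12 in 243 other genes. The 15 members at 8 or more had -0.19, against -0.03 in 141 others, and the 11 members under 5 had -0.08, against -0.03 in 16283 others. Whether these ranges differ was not tested.

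**Figure D2:**
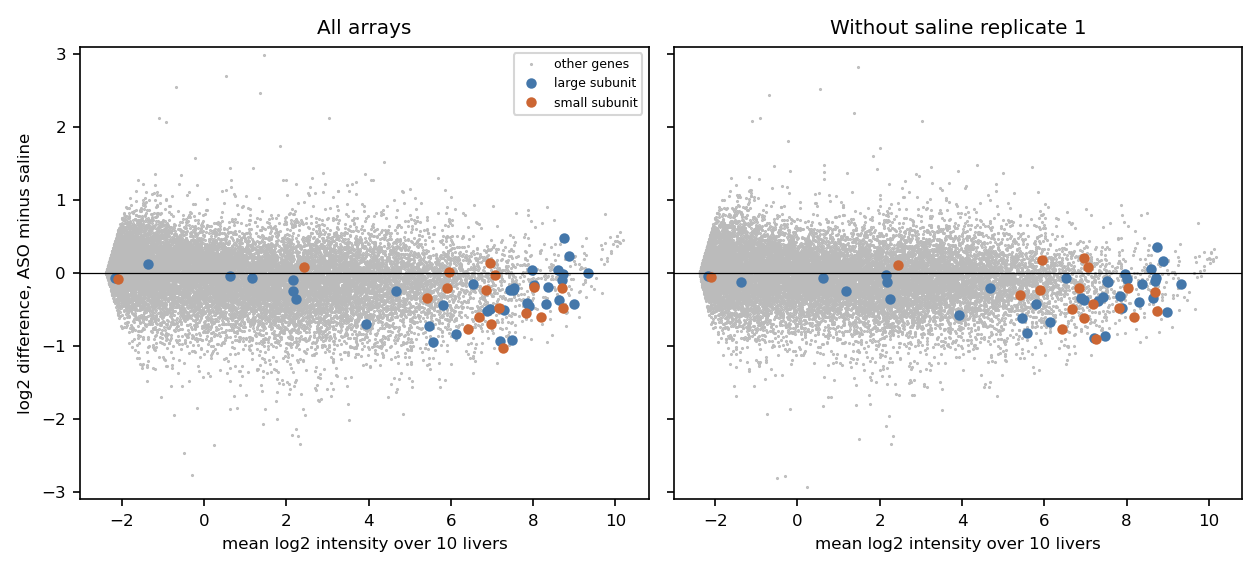
Log2 difference of ASO minus saline livers (vertical axis) against the mean log2 intensity over the 10 livers (horizontal axis) for all genes (grey), large subunit (blue) and small subunit genes (orange), with all arrays and without saline replicate 1. Coloured points between 5 and 8 lie mostly below 0 in both panels, with medians of -0.49 and -0.45 for the ranges 5 to 7 and 7 to 8 in the left panel and -0.37 and -0.38 in the right panel.

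Averaged over the 27 bright large subunit genes without missing values, the log2 intensity was 7.95, 7.92, 7.79, 7.74 and 7.73 in saline replicates 1 to 5. In ASO replicates 1 to 5 it was 7.39, 7.52, 7.33, 7.40 and 7.84. ASO replicate 5 thus lay among the saline livers, and the other 4 ASO livers lay below all of them. For the 15 bright small subunit genes the saline livers were at 7.55, 7.32, 7.37, 7.35 and 7.22. The ASO livers were at 6.99, 6.93, 6.79, 7.20 and 7.07, all below the lowest saline liver, ASO replicate 4 only just so.

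The 1664 other bright genes without missing values averaged 6.33 to 6.42 in the saline livers and 6.15 to 6.37 in the ASO livers, with ASO replicate 5 again the highest of its group. Taken relative to those genes on the same array, the large subunit mean was 1.45 ± 0.07 in saline and 1.26 ± 0.12 in ASO livers (SD, n = 5 per group). ASO replicate 5, at 1.46, was inside the saline range of 1.39 to 1.53. The small subunit mean was 0.99 ± 0.09 in saline and 0.76 ± 0.17 in ASO livers on that relative scale, and there ASO replicate 4, at 1.05, was inside the saline range of 0.89 to 1.13. So 1 ASO liver overlapped the saline group in each subunit, and it was not the same liver.

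**Figure D3:**
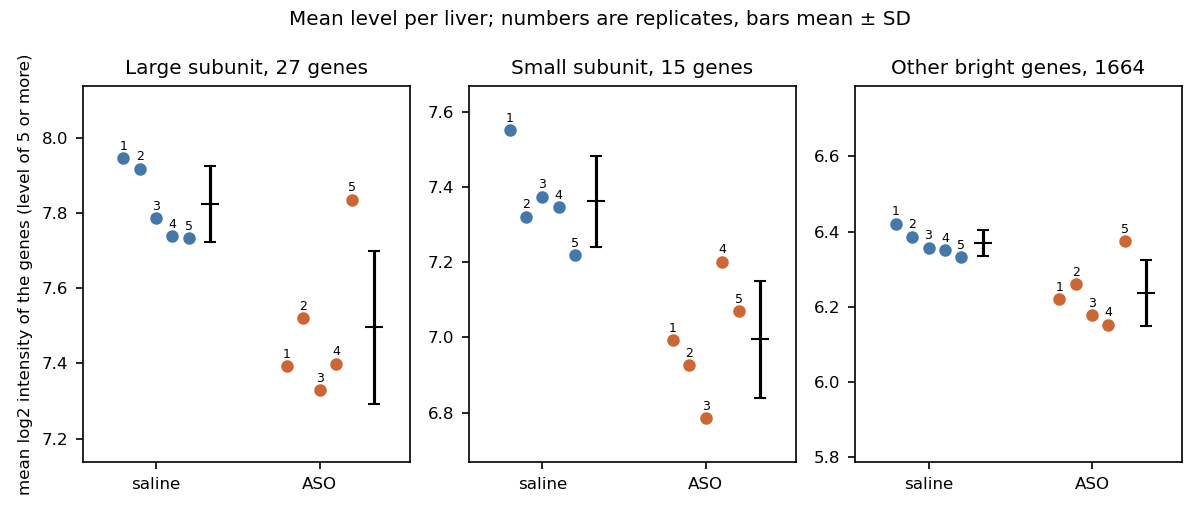
Mean log2 intensity per liver (vertical axis, each panel spanning 1 unit) of bright large subunit, small subunit and other genes, with numbered replicates as points and bars of mean ± SD over 5 livers. For the large subunit ASO replicates 1 to 4 lie below all saline livers and ASO replicate 5, at 7.84, does not, whereas all 5 lie below for the small subunit.

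Single livers ranked differently from gene to gene. Among the 53 members with a value on every array, ASO replicate 3 was the lowest of the ASO livers for 17 and ASO replicate 5 the highest for 20. Saline replicate 1 was the highest of the saline livers for 19. All 5 ASO livers were below the saline mean for 13 of the 54 members and all 5 above it for 2, Rpl22 and Rpl32. The share over all genes by this rule is not given here, so these counts have no background beside them.

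**Figure D4:**
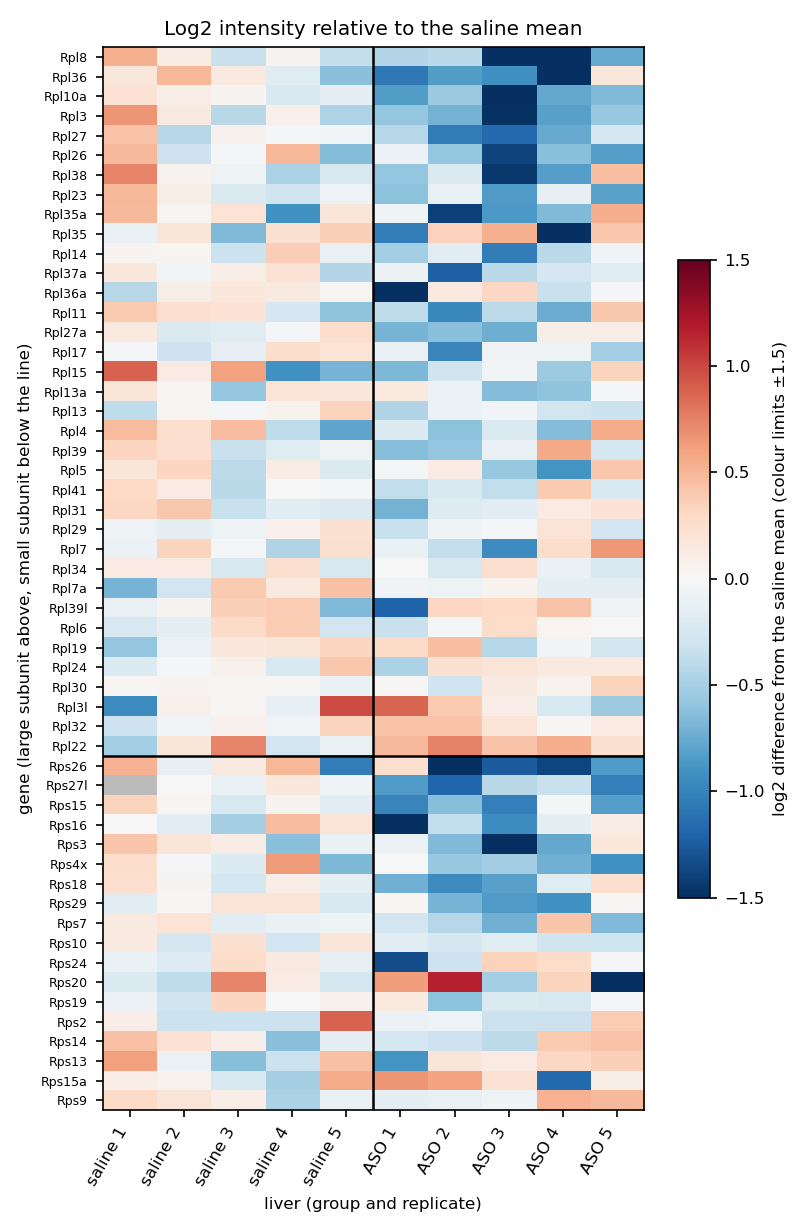
Log2 intensity of each member (rows, large subunit above the line and small subunit below it, ordered by their difference) in each liver (columns), relative to the mean of the saline livers, with colours limited to ±1.5 and the missing value of Rps27l in grey. Most ASO columns are lower than the saline mean, and 46 of the 54 rows have a lower ASO mean.

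Promoter sequences are shown for members described below: for Rpl10a, Rpl27, Rps26 and Rps27l, among the lowest in the ASO livers, for Rpl22, the highest, and for Rps18, which held both CCGGAA and TATAA. RefSeq (GRCm38.p6) gave 54 start sites for 43 of the 54 members. For each, the 100 bases before and 20 after the annotated start were searched, sense strand first. The motifs were CTTTC on the sense strand, a short form of the pyrimidine tract, CCGGAA on either strand, the core bound by ETS factors such as Gabpa, and TATAA on the sense strand. Capitals mark matches.
Rpl10a: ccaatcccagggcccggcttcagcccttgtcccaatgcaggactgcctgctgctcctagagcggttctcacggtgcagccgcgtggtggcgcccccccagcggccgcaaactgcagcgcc
Rpl27: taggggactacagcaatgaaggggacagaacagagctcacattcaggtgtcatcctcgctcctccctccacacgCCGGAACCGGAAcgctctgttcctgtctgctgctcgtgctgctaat
Rps26: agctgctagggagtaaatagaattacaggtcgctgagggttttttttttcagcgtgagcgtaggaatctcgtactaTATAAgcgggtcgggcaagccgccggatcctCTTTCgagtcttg
Rps27l: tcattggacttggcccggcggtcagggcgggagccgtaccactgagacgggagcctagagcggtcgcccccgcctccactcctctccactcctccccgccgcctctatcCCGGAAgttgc
Rps18: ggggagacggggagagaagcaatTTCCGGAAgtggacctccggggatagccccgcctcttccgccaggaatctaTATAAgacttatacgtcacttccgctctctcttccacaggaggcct
Rpl22: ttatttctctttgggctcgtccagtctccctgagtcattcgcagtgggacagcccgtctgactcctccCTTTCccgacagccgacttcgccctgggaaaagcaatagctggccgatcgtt

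These windows lie at chr17:28328371-28328490 (plus strand, Rpl10a), chr11:101442145-101442264 (plus strand, Rpl27), chr10:128626487-128626606 (minus strand, Rps26), chr9:66945986-66946105 (plus strand, Rps27l), chr17:33955646-33955765 (minus strand, Rps18) and chr4:152325626-152325745 (plus strand, Rpl22). For genes with 2 annotated starts, Rpl10a, Rps27l and Rpl22, the start listed first is shown. The CCGGAA of Rps18 is read on both strands from the same overlapping bases.

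CTTTC was present in 23 of the 54 member windows (42.6%), against 15.2% of all 32851 promoter windows of the same length. CCGGAA was in 17 member windows (31.5%, against 9.01% of all) and TATAA in 5 (9.26%, against 8.30%). Searched as well, GGGCGG on either strand was in 37.0% of member windows, against 26.7% of all, and GATGGCG on either strand in 5.56%, against 1.19%. The 21 members with CTTTC had a median log2 difference of -0.24 and the 22 without it -0.38. The 17 members with CCGGAA had -0.25 and the 26 without it -0.24, and these differences between members with and without a match were not tested. Annotated starts can lie several bases from the start used in liver, and a match is not a bound site. The CTTTC counts include matches before the start, so they are not counts of oligopyrimidine tracts.

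Of the large subunit, Rpl10a had the smallest p. Its product forms part of the stalk through which spent tRNA leaves the ribosome. Rpl10a stood at 8.16, 8.03, 7.97, 7.70 and 7.80 in saline replicates 1 to 5 and at 7.10, 7.38, 6.18, 7.17 and 7.27 in ASO replicates 1 to 5. Every ASO liver was below every saline liver, and ASO replicate 3 was the lowest by far. The log2 difference was -0.91 ± 0.23 (SE, limma adjusted p = 0.207), or 1.88-fold, and -0.70 without ASO replicate 3.

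Rpl8 and Rpl3 encode proteins next to the site where peptide bonds are made. Rpl8 was at 6.59, 6.16, 5.72, 6.10 and 5.69 in the saline livers and at 5.61, 5.64, 4.55, 4.39 and 5.30 in the ASO livers. The groups came close without overlapping, and ASO replicates 3 and 4 were the lowest. The difference was -0.95 ± 0.29 (SE, limma adjusted p = 0.273), and -0.78 at the weakest when a single liver was left out. Rpl3 was at 7.21, 6.68, 6.13, 6.62 and 6.08 in saline and at 5.97, 5.83, 5.06, 5.73 and 5.97 in ASO livers. It too was separated, with saline replicate 1 the highest and ASO replicate 3 the lowest, and its difference was -0.83 ± 0.26 (SE, limma adjusted p = 0.277). Without saline replicate 1 it was -0.66.

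Rpl27, a surface protein of the large subunit, was at 6.27, 5.41, 5.90, 5.81 and 5.79 in saline and at 5.41, 4.78, 4.67, 5.08 and 5.57 in ASO livers. Saline replicate 2 lay below ASO replicates 1 and 5, so the groups overlapped, and the difference was -0.73 ± 0.22 (SE, limma adjusted p = 0.276). Without saline replicate 1 it was -0.62. Rpl36, a small protein of the same subunit, was at 7.83, 8.17, 7.82, 7.48 and 7.04 in saline and at 6.60, 6.83, 6.75, 5.67 and 7.84 in ASO livers. Here ASO replicate 5 was as high as the saline livers while the other 4 were below them all, and the difference of -0.93 ± 0.35 (SE) had a limma adjusted p of 0.366. Rpl26 and Rpl23, which can bind the p53 regulator Mdm2 when free of ribosomes, differed by -0.70 ± 0.29 and -0.50 ± 0.22 (SE). Without saline replicate 1 they differed by -0.58 and -0.38, and neither then had an unadjusted limma p under 0.05 (0.078 and 0.107).

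Rpl22, an RNA-binding protein that the ribosome can do without, had the largest difference upward. It was at 7.99, 8.68, 9.24, 8.22 and 8.39 in saline and at 8.99, 9.25, 8.93, 9.05 and 8.73 in ASO livers. Saline replicate 3 lay among the ASO livers and saline replicate 1 was the lowest of all 10. The difference of 0.49 ± 0.23 (SE, limma adjusted p = 0.461) was 0.36 without saline replicate 1, and the 2 other Rpl22 probes gave 0.01 ± 0.15 and 0.27 ± 0.20. Rpl32 and Rpl19, structural proteins of the large subunit, differed by 0.24 ± 0.17 and -0.00 ± 0.23 (SE), with a 95% interval of -0.51 to 0.50 for Rpl19. Without saline replicate 1, Rpl32 was at 0.16 and Rpl19 at -0.15.

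Rpl36a, near the site where tRNA exits, had a value set by 1 liver. It was at 8.79, 9.29, 9.36, 9.33 and 9.23 in saline and at 6.99, 9.35, 9.51, 8.86 and 9.17 in ASO livers. ASO replicate 1 alone was low, and the difference of -0.43 ± 0.41 (SE) was 0.02 without it.

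**Figure D5:**
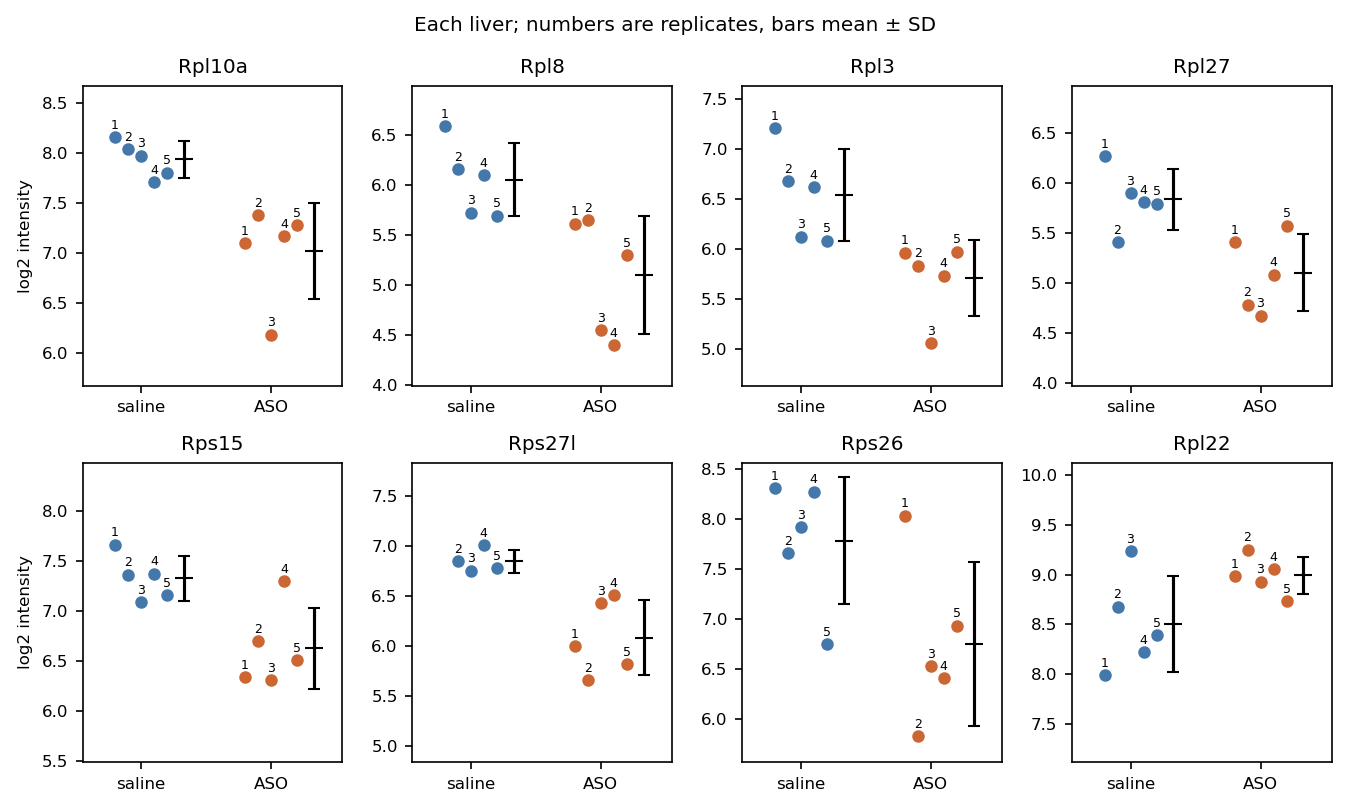
Log2 intensity (vertical axis, each panel spanning 3 units) of 8 members in each saline (blue) and ASO (orange) liver, with numbered replicates and bars of mean ± SD. Rpl10a, Rpl8, Rpl3 and Rps27l show no overlap between the groups, Rpl27, Rps15 and Rps26 overlap with lower ASO means (7.32 in saline and 6.62 in ASO livers for Rps15), and Rpl22 has the higher ASO mean (8.99, against 8.50 in saline).

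In the small subunit the smallest p belonged to Rps27l. It was at 6.85, 6.75, 7.01 and 6.78 in saline replicates 2 to 5, with no value for saline replicate 1, and at 6.00, 5.66, 6.43, 6.51 and 5.81 in the ASO livers. All ASO livers were below the 4 measured saline livers, which varied little (SD 0.12). The difference was -0.76 ± 0.21 (SE, limma adjusted p = 0.252), fitted on those 9 arrays. Of 4 other genes of the p53 response, 2 were higher and 2 lower, with differences from -0.02 to 0.29. Ccng1 and Cdkn1a, both p53 targets, were at 0.22 ± 0.18 and 0.29 ± 0.29 (SE).

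Rps15, which lies near the decoding site, was at 7.66, 7.36, 7.08, 7.37 and 7.15 in saline and at 6.33, 6.69, 6.30, 7.29 and 6.50 in ASO livers. ASO replicate 4 was the only one inside the saline range, and the difference was -0.70 ± 0.22 (SE, limma adjusted p = 0.275). Rps26, at the exit of the mRNA channel, had the largest difference of any member, -1.03 ± 0.41 (SE, limma adjusted p = 0.378). Its saline livers were at 8.30, 7.66, 7.91, 8.27 and 6.74 and its ASO livers at 8.03, 5.82, 6.53, 6.41 and 6.93. ASO replicate 1 and saline replicate 5 each lay within the other group, so the size is poorly fixed, with a 95% interval of -1.92 to -0.15.

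Several other small subunit genes were lower by less than Rps27l, Rps15 and Rps26. Rps16, whose tail reaches toward the bound tRNA, differed by -0.61 ± 0.33 (SE), and by -0.33 without ASO replicate 1. Rps3, at the mRNA entry, differed by -0.60 ± 0.33, and by -0.34 without ASO replicate 3. Rps4x, Rps18 and Rps29 differed by -0.54 ± 0.26, -0.48 ± 0.24 and -0.48 ± 0.23. None of these had an unadjusted p under 0.05.

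Rps20 had the largest SE of the 54 members, with ASO livers at 9.42, 9.97, 8.29, 9.14 and 6.17 and saline livers at 8.59, 8.42, 9.53, 8.92 and 8.53. ASO replicate 5 was the lowest and ASO replicate 2 the highest of all 10 livers. The difference of -0.20 ± 0.59 (SE) was 0.41 without ASO replicate 5, so its direction rests on that liver. Rps9, Rps15a and Rps13 had differences of 0.14 ± 0.21, 0.08 ± 0.34 and 0.02 ± 0.30, the only ones above 0 in the small subunit. Those of Rps15a and Rps13 turned below 0 when single livers were left out, and that of Rps9 was 0.02 to 0.21, lowest without saline replicate 4.

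Paralogs were compared with their common forms where both were measured. Rpl3l, the muscle form, was dim, between -2.38 (the floor, in saline replicate 1) and -0.44, and differed by 0.12 ± 0.35 (SE), and by -0.12 without saline replicate 1. Relative to Rpl3 on the same array it was higher by 0.95 in the ASO livers, which an exact two-sided permutation test over the 252 splits of 5 and 5 livers did not call (p = 0.119, adjusted p = 0.238 over 2 pairs). That value was 0.55 without saline replicate 1, where Rpl3l was at the floor, and 1.31 without saline replicate 5 (exact permutation p = 0.032, adjusted p = 0.063). Rpl39l, the testis form, differed by -0.04 ± 0.32 and its common form Rpl39, in the tunnel through which new chains leave, by -0.20 ± 0.24. The change of Rpl39l relative to Rpl39 was 0.16 (exact permutation p = 0.683). These tests do not show that the forms behave alike, since the SD of the relative values was 0.55 to 1.11.

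More than 1 probe was available for 12 members. In 7 of these all probes were lower, in 2 all were higher and in 3 they differed in sign, with no gene whose probes differed from 0 in opposite directions by over 2 SE. The 3 probes of Rpl27a gave -0.37 ± 0.22, -0.62 ± 0.23 and -0.76 ± 0.21 (SE), from the brightest to the dimmest. The probes of Rpl7 gave -0.09 ± 0.28, -0.46 ± 0.16 and -0.47 ± 0.21, so for both genes the dimmer probes were further below 0 than the probe that stands for the gene. The reverse held for Rps4x, at -0.54 ± 0.26 and -0.09 ± 0.24 in its dimmer probe, and for Rpl11, at -0.42 ± 0.28 and -0.11 ± 0.22. A second Rps13 probe at the floor in all saline livers gave 0.59 ± 0.24. Ribosomal protein genes have many processed pseudogenes, and whether probes also bind those copies was not tested, because probe sequences were not used here. Probes of Rps2, Rpl34 and Rpl3l had values at the floor on some arrays, and their differences depend on it. Rps2 was at -0.08 ± 0.26 (SE) with the floor and at 0.23 ± 0.41 without it, so the floor set its direction. Rpl34 went from -0.07 ± 0.17 to -0.52 ± 0.40, and Rpl3l from 0.12 ± 0.35 to 0.22 ± 0.42.

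Of 7 measured ribosomal genes outside the pattern, 6 were lower (85.7%, against 54.9% of all genes) and 1 higher. Their median was -0.25, which was -0.13 after quantile normalization, and 0 had an unadjusted p under 0.05. Rplp2, a protein of the acidic stalk, differed by -0.48 ± 0.39 (SE) and Fau, which is cut to give a small subunit protein, by -0.30 ± 0.21. The mitochondrial ribosome, built from a separate set of proteins, had 56 of 72 genes lower (77.8%, against 54.9% of all genes). Its median was -0.13, which was 0.00 after quantile normalization. Of these 72, 9 were lower (12.5%) and 1 higher (1.39%) at an unadjusted p under 0.05, where 8.26% of all genes were lower and 4.21% higher. Mrpl44 at -1.21 ± 0.33 and Mrps24 at -1.31 ± 0.36 (SE) had the smallest p, and 0 of the 72 passed limma's adjusted threshold.

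Other mRNAs that begin with an oligopyrimidine tract were lower in 9 of 14 cases (64.3%), with a median of -0.35. That share was near the 64.1% of other bright genes, and 54.9% of all genes were lower. The elongation factor subunits Eef1g and Eef1b2 differed by -1.23 ± 0.42 and -0.55 ± 0.20 (SE). At an unadjusted p under 0.05, 3 of the 14 were lower (21.4%) and 0 higher. By that rule 8.26% of all genes and 10.1% of other bright genes were lower. For genes of mTORC1 and of oligopyrimidine control, 10 of 17 were lower (58.8%, against 54.9% of all genes). Their median was -0.08, which was 0.04 after quantile normalization and -0.02 without saline replicate 1, so the direction of this list depends on the scaling. Among them Akt1s1, an inhibitor within mTORC1, differed by -1.19 ± 0.40 and Rptor, its scaffold, by 0.55 ± 0.28. The Akt1s1 probe was dim, at a mean log2 intensity of -0.94, with ASO replicates 3 and 4 at the floor, so its size depends on the floor. ASO replicate 1 lay above all saline livers for that gene.

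Ribosome assembly factors were lower in 18 of 27 cases (66.7%, against 54.9% of all genes), with a median of -0.14. At an unadjusted p under 0.05, 4 were lower (14.8%, against 8.26% of all genes) and 0 higher. Nip7, which acts in large subunit assembly, was at 3.77 ± 0.11 in saline and 3.15 ± 0.17 in ASO livers (SD, n = 5 per group), with no overlap and a limma adjusted p of 0.190. It was the 1 gene of the 27 that was lower without overlap (3.70%, against 1.72% of all genes). Gar1, of the particle that modifies uridines in rRNA, differed by -0.62 ± 0.21 (SE). Genes of RNA polymerase I and rRNA transcription were higher in 8 of 12 cases and lower in 4 (33.3%, against 54.9% of all genes). Their median was 0.07, which was 0.18 after quantile normalization, and 0 of 12 had an unadjusted p under 0.05. The 2 with the smallest p were Taf1a at 0.27 ± 0.17 and Taf1d at -0.27 ± 0.19 (SE).

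Of 9 transcription factors known to act at ribosomal protein promoters, 7 were lower (77.8%, against 54.9% of all genes). Their median was -0.10, which was -0.03 after quantile normalization and -0.17 without saline replicate 1. Gabpa, the DNA-binding subunit of an ETS factor, was at 1.08 ± 0.42 in saline and -0.10 ± 0.53 in ASO livers (SD, n = 5 per group). All 5 ASO livers lay below the lowest saline liver, with a difference of -1.17 ± 0.28 (SE, limma adjusted p = 0.190). Gabpa was named for the smallest p of the list, its probe was dim at a mean log2 intensity of 0.49, and 1.72% of all genes were lower without overlap. Gabpb1, 1 of the 2 factors that were higher, differed by 0.32 ± 0.23 (SE). Myc differed by -0.48 ± 0.25 and did not reach an unadjusted p under 0.05.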

How the data were processed

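The authors deposited 1 table of array intensities on a linear scale, with medians of 1.03 to 1.05 on all 10 arrays and 74 to 377 values at or below 0 per array. For background subtraction and scaling, the method is not given in the sources used here, which also applies to detection flags. The table held 36227 probes, of which 36088 had at least 3 values per group and were tested. Values under the 10th percentile of positive values (0.192) were set to it, which alters differences of dim probes, and log2 was taken. Annotation gave 1 gene symbol to 21615 probes and several to 681, and all 54 members matched GRCm38.p6 by Entrez ID with 0 symbols changed.

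ASO minus saline was fitted over all probes with limma 3.58.1 in R 4.3.3, two-sided, with Benjamini-Hochberg adjustment and no covariate. The procedure was also run on simulated data with independent values and no array shifts, floor or missing values. Its outcome is not given here, and it could not show how those features act on the fit. The number of arrays limits the precision, and p-values measure the spread between these mice. Members and lists were chosen with earlier results of these data known. No list was tested as a set, and the p-values of single genes take no account of that choice. In each subunit the genes named were the 8 with the smallest p, the 3 brightest, up to 3 with the largest positive difference, the paralogs with their common forms, and genes whose probes opposed each other by over 2 SE (0 found). Rpl7, Rpl11, Rpl27a, Rpl34, Rps2 and marker genes, the level of 5 for bright genes, the brightness ranges, the motifs and the promoters shown were chosen after values were seen. In each further list the 2 genes with the smallest p were named. Alternatives were quantile and cyclic loess normalization, no floor, a pseudocount of 0.5, a limit to probes brighter than the median, a trended and robust eBayes, members without the paralogs, the mean of a gene's probes, and leaving out each array.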

Additional observations from a re-analysis of the deposited data

Results flagged for a closer look

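A single liver far from the other 4 of its group was found in 6 of 56 groups of values examined. Chance gives about 1 in 20 for a single group. These groups share the same arrays, and genes were named partly by p and by difference, so the 6 cannot be read as an excess. In the ASO group, Rpl3 was lowest at 5.06 and Rpl10a lowest at 6.18, both in replicate 3. Rpl36a was lowest at 6.99 among ASO livers, in replicate 1, and at 8.79 among saline livers, in replicate 1. Rps13 was lowest at 5.05 in ASO replicate 1. The small subunit mean over 17 genes was highest at 6.69 in saline replicate 1, against 6.45 to 6.49 in the other saline livers.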

How the results depend on the processing

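No paired analysis was possible because the labels give the mice of both groups no shared numbers. The count of 0 members past the adjusted threshold (limma, with 10 at an unadjusted p under 0.05) was 0 in all alternatives run, and both subunit medians stayed below 0 in all of them, from -0.33 to -0.21 (large) and -0.36 to -0.26 (small) when single arrays were left out. Members lower at an unadjusted p under 0.05 numbered 7 to 17 and members higher 0 to 1 without single arrays, and 1 was higher with quantile normalization, cyclic loess or a pseudocount, settings in which Rpl22 passed that limit. Shares of all genes with an unadjusted p under 0.05 are not given for any of these settings. Probes changed over the whole table were 23, and 39 with cyclic loess, 7 with no floor, 43 with a pseudocount, 73 with only probes above the median level, 42 with trend and robust, and 0 to 16 without single arrays. Some single genes changed direction, including Rpl36a and Rps20, which each rest on 1 ASO liver. Rpl19 was 0.000204 with quantile normalization and 0.0305 with cyclic loess, and Rpl39l was 0.0290 with quantile normalization. Without single arrays Rpl19 ranged from -0.15 to 0.11, Rpl3l from -0.12 to 0.37, Rpl36a from -0.61 to 0.0194, Rpl39l from -0.21 to 0.25, Rps13 from -0.14 to 0.25, Rps15a from -0.0618 to 0.39 and Rps20 from -0.54 to 0.41. The change of Rpl39l relative to Rpl39 ranged from -0.0223 to 0.34. The cause of these shifts was not tested.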
